A study of Mus musculus with 10 samples.

Results

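The 44 protein-coding mouse genes described here encode the semaphorins, plexins, netrins, Unc5 receptors, slits and Robo receptors. They were taken by symbol from the 55385 genes listed in each deposited table. They comprise 20 semaphorins, 9 plexins, 4 netrins, 4 Unc5 receptors, 3 slits and 4 Robo receptors. RNA was sequenced from liver endothelial cells in 5 libraries labelled Alk1-HEC-KO, of genotype KO, and in 5 Control libraries, of genotype WT. Cells outside the hepatocyte fraction were enriched on a Nycodenz gradient and endothelial cells were then bound with beads against CD146, the protein of Mcam. Alk1 is an alias of Acvrl1, the endothelial receptor for BMP9 and BMP10. The sources used here give neither age, sex, deleted exons nor the driver of the deletion, and do not say whether the libraries are from separate animals. The p-values therefore measure the spread between these libraries, which may be technical.

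These families were first known for steering growing axons and are also used by blood vessels. Semaphorins are secreted or membrane-bound ligands of plexins, and most secreted class 3 members need a neuropilin as co-receptor, while Sema3e binds Plxnd1 directly. Plexins lower integrin adhesion and reshape the actin cytoskeleton through the GTPase-activating domain in their cytoplasmic part. Netrins are laminin-like proteins read by Dcc, neogenin and Unc5 receptors, and slits are read by Robo receptors. In endothelium Plxnd1, Unc5b and Robo4 are the best-known members.

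Depth was nearly equal, with 23489494 to 23602771 estimated counts in each library. Acvrl1 was higher in the libraries labelled Alk1-HEC-KO, at 239 to 258 CPM (counts relative to the scaled library total) against 114 to 136 CPM in Control libraries (exact two-sided permutation p = 0.0079, the lowest value possible with this design). These estimates are per gene and do not show which exons were read, so Acvrl1 goes against the label without settling it. Why it was higher was not tested. Its log2 fold change was 0.96, and 0.84 with an offset for transcript length (edgeR adjusted p = 1.7e-07 and 1.3e-06). Every direction below is that of the libraries labelled Alk1-HEC-KO. Of 15043 genes tested across the table with edgeR's quasi-likelihood test, 2959 (19.7%) passed at an adjusted p under 0.05, 1593 (10.6%) of them higher and 1366 (9.08%) lower. On log2(TPM + 1) 73.3% of the calls were higher, against 53.8% here, and the median gene moved up by 0.08 on the log2 scale. TPM levels and sums compared between the groups below include that shift. The summed level of 9 endothelial markers was 9304 to 10138 TPM (transcript share corrected for length) in the libraries labelled Alk1-HEC-KO and 11192 to 11898 TPM in Control libraries. Clec4g, a sinusoidal lectin, held the largest part of that sum, at 4787 ± 258 TPM in libraries labelled Alk1-HEC-KO and 6907 ± 543 TPM in Control libraries (SD, n = 5 each). Of the 9 markers 3 rose (Pecam1, Tie1 and Mcam), 4 fell (Kdr, Tek, Stab2 and Clec4g) and 2 did not pass. Mcam, which encodes the CD146 bound by the beads, rose 1.64-fold (edgeR adjusted p = 1.1e-04). The mitochondrial share was 3.45 to 4.32% in the libraries labelled Alk1-HEC-KO and 4.27 to 6.43% in Control libraries, highest in Control library 4.

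Of the 44 guidance genes 37 had enough counts to be tested. Of these 14 rose, 4 fell and 19 did not pass, which is 48.6% called, beside 19.7% of all genes tested. In 17 of the 37 the groups did not overlap, beside 15.4% of all genes tested. The median log2 fold change was 0.28 among the 37 and 0.00 among all genes tested. Of the 20 members with a mean of at least 10 CPM 11 were called (55%), beside 21.2% of the genes at that level. Of the 17 tested members below it 7 were called (41.2%), beside 17.2% of the genes at that level. The ligands and the receptors are given apart below: 6 of 22 ligands tested rose and none fell, while 8 of 15 receptors tested rose and 4 fell. That is 27.3% of the ligands and 80% of the receptors called, beside 10.6% of all genes tested higher and 9.08% lower. Of the 17 semaphorins tested 4 were called, which is 23.5%, near the 19.7% of all genes tested. Whether these shares differ was not tested, and the members were chosen with earlier results of these data known. In bulk RNA, fewer cells of a type and less RNA per cell cannot be told apart.

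**Figure D1:**
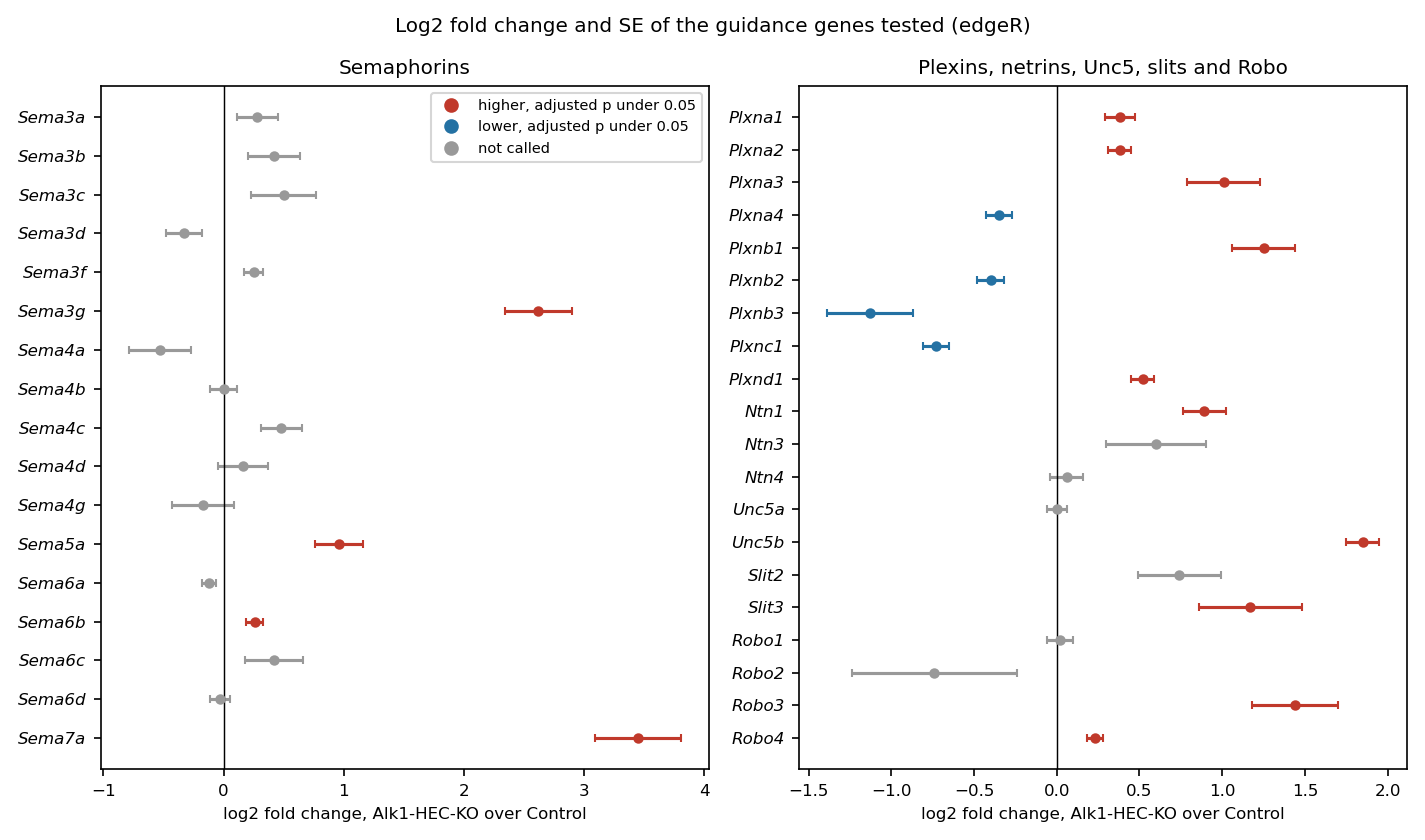
Log2 fold change (libraries labelled Alk1-HEC-KO over Control libraries, x axis) with its standard error for the 37 guidance genes tested, semaphorins on the left and the other families on the right. Sema7a (3.45) and Sema3g (2.62) lie farthest to the right, and all 9 plexins are coloured as called, 5 to the right of 0 and 4 to the left.

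The largest changes among the members were those of a class 7 and a class 3 semaphorin, from low levels. Sema7a is a GPI-anchored semaphorin that binds Plxnc1 and beta-1 integrins. Values are given in the order of replicates 1 to 5. It stood at 12.2, 13.2, 8.62, 18.8 and 8.44 CPM in the libraries labelled Alk1-HEC-KO, against 0.84, 1.33, 1.39, 0.36 and 1.66 CPM in Control libraries. The lowest library labelled Alk1-HEC-KO was far above the highest Control library. Sema7a rose 10.9-fold (log2 fold change 3.45 ± 0.36 SE, edgeR adjusted p = 7.6e-05), with 130 counts in all over the Control libraries. Sema3g, a secreted semaphorin read through Nrp2 and known from arterial endothelium, was at 18.3, 19.3, 19.6, 16.8 and 20.7 CPM in the libraries labelled Alk1-HEC-KO, against 3.32, 3.13, 3.66, 0.989 and 4.26 CPM in Control libraries. Its values in the libraries labelled Alk1-HEC-KO lay close together, and Control library 4 was the lowest. Sema3g rose 6.14-fold (log2 fold change 2.62 ± 0.28 SE, edgeR adjusted p = 1.0e-04).

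The stretches upstream of the start sites of the 3 members that rose the most in fold and of Plxnc1, the abundant plexin that fell, are shown to give their sequence context (RefSeq, GRCm38.p6). Each runs 5′ to 3′ on the strand of its gene and stops before the first annotated exon base. Capitals mark the letters CAGACA on either strand, which SMAD proteins of the TGF-beta branch are known to bind within longer sites. The stretches are chr9:57939862-57940111 on the plus strand for Sema7a, chr14:31217623-31217859 on the plus strand for Sema3g, chr10:60831582-60831831 on the minus strand for Unc5b and chr10:94944846-94945095 on the minus strand for Plxnc1.
Sema7a: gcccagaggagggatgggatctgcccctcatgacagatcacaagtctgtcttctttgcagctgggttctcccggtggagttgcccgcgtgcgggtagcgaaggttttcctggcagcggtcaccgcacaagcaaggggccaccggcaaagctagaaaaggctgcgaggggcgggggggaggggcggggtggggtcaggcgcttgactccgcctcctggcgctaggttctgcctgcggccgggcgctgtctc
Sema3g: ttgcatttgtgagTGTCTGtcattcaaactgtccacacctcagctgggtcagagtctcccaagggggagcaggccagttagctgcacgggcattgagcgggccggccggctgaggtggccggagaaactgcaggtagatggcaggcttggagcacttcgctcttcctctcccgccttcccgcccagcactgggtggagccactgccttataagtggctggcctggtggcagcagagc
Unc5b: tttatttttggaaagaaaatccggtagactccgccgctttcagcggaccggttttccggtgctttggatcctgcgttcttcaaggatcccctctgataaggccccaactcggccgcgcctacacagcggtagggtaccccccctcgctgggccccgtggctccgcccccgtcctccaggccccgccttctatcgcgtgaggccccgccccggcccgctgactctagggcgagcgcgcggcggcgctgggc
Plxnc1: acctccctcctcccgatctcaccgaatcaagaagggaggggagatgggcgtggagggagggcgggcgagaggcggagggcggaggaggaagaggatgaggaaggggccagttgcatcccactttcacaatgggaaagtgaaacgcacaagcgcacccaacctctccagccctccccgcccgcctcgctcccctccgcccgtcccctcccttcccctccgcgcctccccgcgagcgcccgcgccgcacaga
The upstream stretches were rich in G and C, at 66.4% for Sema7a, 61.6% for Sema3g, 66.8% for Unc5b and 68.8% for Plxnc1. Windows of 300 bases (250 before and 50 after each start) were given for 36 of the 44 members in 49 windows, and not for Ntn1, Plxna1, Plxna4, Sema3b, Sema3f, Sema6a, Slit1 and Unc5d. The letters GGCGCC, their own reverse complement and known as a binding site of BMP-branch SMADs, stood in 9 of the 49 windows (18.4%) and in 11.9% of all 32851 windows. CAGACA or its reverse complement TGTCTG stood in 16 of the 49 (32.7%) and in 21% of all windows. The motifs can share an end base. Of the 4 genes shown, Sema3g alone held either motif in its window. These matches are a description of the letters and not of binding.

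Among the other secreted class 3 semaphorins none was called. Sema3f, which binds Nrp2, was the most abundant semaphorin at 353 ± 52.7 TPM in libraries labelled Alk1-HEC-KO and 271 ± 18.8 TPM in Control libraries (SD, n = 5 each). In CPM it was at 585, 491, 512, 549 and 668 in the libraries labelled Alk1-HEC-KO and at 426, 481, 512, 468 and 475 in Control libraries, and the groups overlapped between 491 and 512. Its log2 fold change was 0.25 ± 0.08 (SE, edgeR adjusted p = 0.052), and 8 of 22 alternatives called it higher, among them those without library 2 labelled Alk1-HEC-KO (0.033) and without Control library 3 (0.044). Sema3d, another neuropilin ligand, was at 59.7, 43.7, 58.8, 37.2 and 46 CPM in the libraries labelled Alk1-HEC-KO and at 57.9, 60.9, 47.7, 67.9 and 74.5 CPM in Control libraries, and the groups overlapped (edgeR adjusted p = 0.16). Sema3a, Sema3b and Sema3c were at group means between 1.21 and 6.15 CPM, with edgeR adjusted p from 0.21 to 0.28, and Sema3c passed as higher without Control library 2 (log2 fold change 0.75). Sema3e, the direct ligand of Plxnd1, was not tested, with 47 counts summed over the libraries labelled Alk1-HEC-KO and 32 over Control libraries.

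None of the class 4 semaphorins, which span the membrane, was called. Sema4c, a ligand of Plxnb2, was at 138, 119, 118, 159 and 193 CPM in the libraries labelled Alk1-HEC-KO and at 97, 125, 76.1, 121 and 101 CPM in Control libraries. Its ranges overlapped between 118 and 125 CPM, and its log2 fold change was 0.48 ± 0.17 (SE, edgeR adjusted p = 0.074, called by 5 of 22 alternatives). Sema4b was at 49.9, 48.2, 40.7, 47.2 and 41.7 CPM in the libraries labelled Alk1-HEC-KO and at 42.4, 59.7, 44.2, 40.7 and 40.7 CPM in Control libraries, with means of 45.5 CPM in both. Sema4a, Sema4d and Sema4g, the first 2 known from immune cells, were between 2.17 and 11.5 CPM in every library, with edgeR adjusted p of 0.18, 0.64 and 0.71. Sema4a was called lower without library 1 labelled Alk1-HEC-KO (log2 fold change -0.81, edgeR adjusted p = 0.012), where that library had 11.5 CPM and the other 4 had 4.41 to 8.04 CPM. Sema4f had 9 counts in the libraries labelled Alk1-HEC-KO and 15 in Control libraries and was not tested.

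Of the classes 5 and 6, Sema5a and Sema6b rose. Sema5a, which carries thrombospondin repeats outside the cell, was at 3.98, 4.97, 6.09, 4.33 and 5.64 CPM in the libraries labelled Alk1-HEC-KO, against 2.69, 3.26, 1.57, 2.34 and 2.99 CPM in Control libraries. The groups did not overlap, and Sema5a rose 1.94-fold (edgeR adjusted p = 0.0043). Sema5b was at 0.0419, 0.369, 0.254, 0.42 and 0.501 CPM in the libraries labelled Alk1-HEC-KO and at 0.336, 0.129, 0.0871, 0.0899 and 0.384 CPM in Control libraries, too low to test. Sema6b, a ligand of Plxna4, was at 146, 119, 125, 150 and 134 CPM in the libraries labelled Alk1-HEC-KO, against 106, 101, 119, 120 and 115 CPM in Control libraries. The groups overlapped slightly, at 119 and 120 CPM, and Sema6b rose 1.2-fold (edgeR adjusted p = 0.026). That call ended without library 1 or 4 labelled Alk1-HEC-KO (edgeR adjusted p = 0.066 and 0.064) and without Control library 1 or 2 (0.056 and 0.062) or Control libraries 4 and 5 together (0.052). Sema6a, which binds Plxna2 and Plxna4, was at 267, 288, 283, 258 and 292 CPM in the libraries labelled Alk1-HEC-KO and at 286, 278, 319, 329 and 298 CPM in Control libraries, with overlap (edgeR adjusted p = 0.18). Sema6c and Sema6d did not pass (edgeR adjusted p = 0.25 and 0.87), and Sema6d averaged 163 ± 17.2 CPM in libraries labelled Alk1-HEC-KO and 166 ± 15.9 CPM in Control libraries (SD, n = 5 each).

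The summed semaphorin level, which includes the shift of TPM given above, was 687 ± 77.5 TPM in libraries labelled Alk1-HEC-KO and 550 ± 34.1 TPM in Control libraries (SD, n = 5 each). Class 3 made up 54.9% ± 2.01 of the sum in libraries labelled Alk1-HEC-KO and 53% ± 1.22 in Control libraries, nearly all of it Sema3f (51.2% ± 2.11 and 49.3% ± 1.23). Class 6 made up 28.7% ± 1.98 in libraries labelled Alk1-HEC-KO and 32.5% ± 2.16 in Control libraries. Sema7a and Sema3g, with the largest fold changes, were minor parts of this sum in both groups: Sema7a made up 0.996% ± 0.341 and 0.12% ± 0.0163, and Sema3g 1.05% ± 0.116 and 0.197% ± 0.0792. These shares are descriptions with no test.

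**Figure D2:**
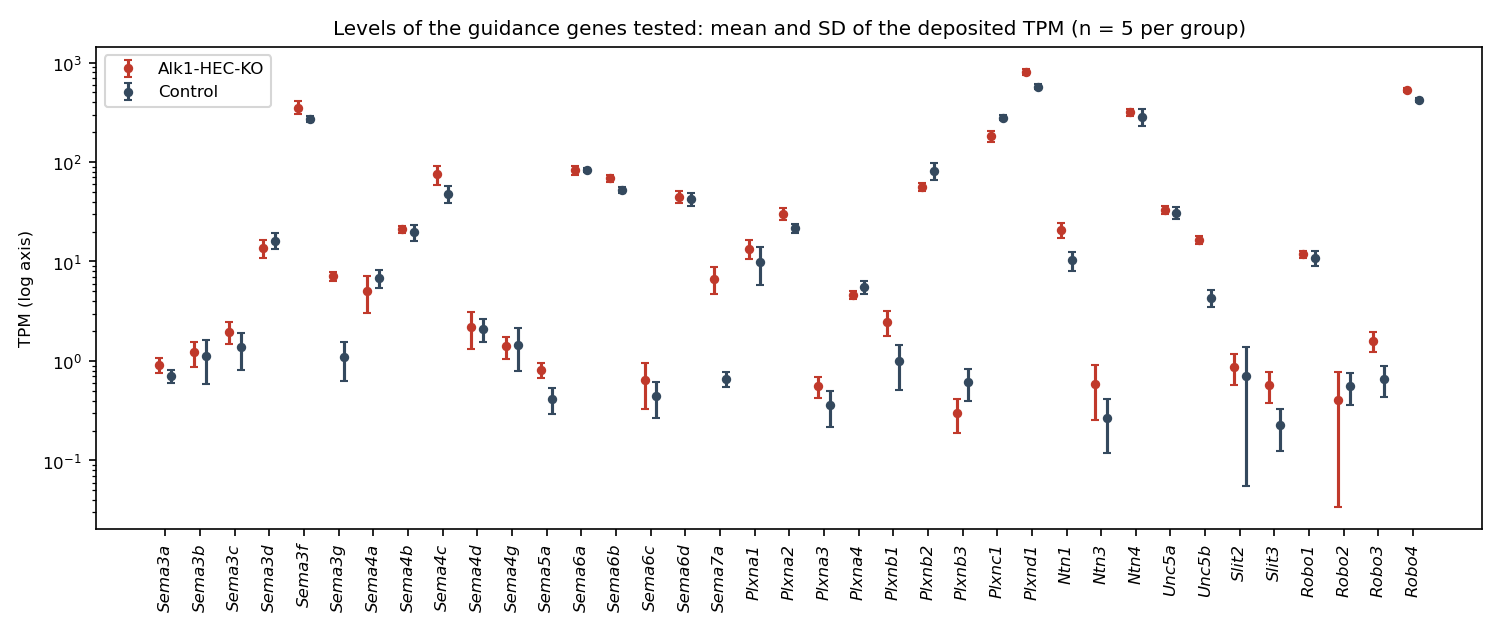
Mean and SD (n = 5 per group) of the deposited TPM, on a log axis, for the 37 guidance genes tested, with the libraries labelled Alk1-HEC-KO to the left of the Control libraries for each gene. Plxnd1, Robo4, Sema3f and Ntn4 are the most abundant in the libraries labelled Alk1-HEC-KO, at 808, 527, 353 and 317 TPM, while Sema7a and Sema3g stay under 10 TPM.

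All 9 plexins, the semaphorin receptors, passed the test, beside 19.7% of all genes tested: 5 rose and 4 fell. The calls of Plxna1, Plxna3, Plxna4 and Plxnb3 ended on log2(TPM + 1). Plxnd1, the endothelial receptor of Sema3e, was by far the most abundant, at 808 ± 54.6 TPM in libraries labelled Alk1-HEC-KO and 571 ± 31.6 TPM in Control libraries (SD, n = 5 each). In CPM it was at 1818, 1854, 1846, 1950 and 2271 in the libraries labelled Alk1-HEC-KO, against 1412, 1299, 1385, 1284 and 1393 in Control libraries. The groups did not overlap, and Plxnd1 rose 1.44-fold (log2 fold change 0.52 ± 0.07 SE, edgeR adjusted p = 1.8e-04). Plxnc1, the receptor of Sema7a, was at 855, 671, 870, 682 and 713 CPM in the libraries labelled Alk1-HEC-KO, against 1240, 1286, 1211, 1323 and 1239 CPM in Control libraries. Every library labelled Alk1-HEC-KO was below every Control library, and Plxnc1 fell 1.66-fold (log2 fold change -0.73 ± 0.08 SE, edgeR adjusted p = 4.0e-05).

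The make-up of the plexin transcripts differed accordingly. Plxnd1 made up 73.6% ± 2.5 of the summed plexin TPM in libraries labelled Alk1-HEC-KO and 58.8% ± 1.06 in Control libraries, while Plxnc1 made up 16.6% ± 2.29 and 28.8% ± 1.5 (SD, n = 5 each). The ranges of the Plxnd1 share, 70.7 to 76% and 57.6 to 60.3%, lay apart. The sum of all plexins was 1097 ± 48.7 TPM in libraries labelled Alk1-HEC-KO and 970 ± 45.4 TPM in Control libraries, a difference that includes the shift of TPM given above.

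**Figure D3:**
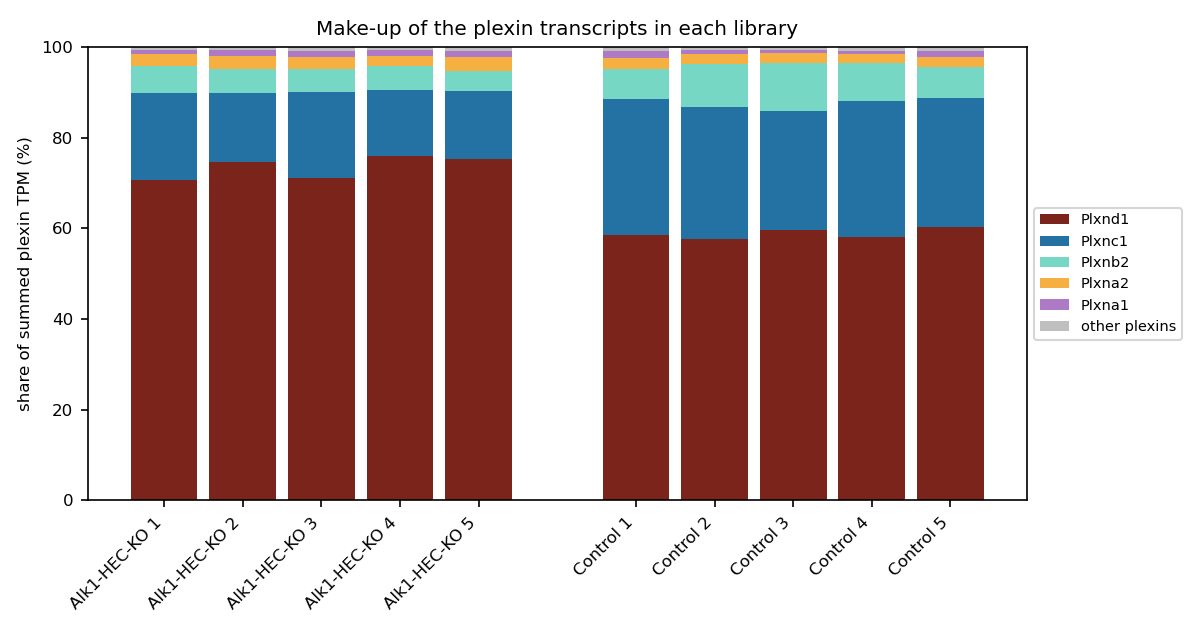
Share (%) of each plexin in the summed plexin TPM of each library, as stacked bars, with the 5 libraries labelled Alk1-HEC-KO on the left and the 5 Control libraries on the right. The Plxnd1 part spans 70.7 to 76% in the libraries labelled Alk1-HEC-KO and 57.6 to 60.3% in Control libraries, and the Plxnc1 part is smaller in every library labelled Alk1-HEC-KO.

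The plexin A genes, which pair with neuropilins or bind class 6 semaphorins, moved both ways. Plxna2 was at 176, 202, 189, 174 and 225 CPM in the libraries labelled Alk1-HEC-KO, against 149, 146, 154, 138 and 156 CPM in Control libraries. It rose 1.3-fold without overlap (edgeR adjusted p = 0.0027). Plxna1 was at 49.8, 57.6, 52.9, 54.9 and 62.5 CPM in the libraries labelled Alk1-HEC-KO, against 49.8, 43.3, 45.3, 35.6 and 40.1 CPM in Control libraries, so that the groups met at 49.8 CPM without crossing. It rose 1.3-fold (edgeR adjusted p = 0.0098). Plxna3 was low, at 1.01, 1.68, 1.56, 1.3 and 1.17 CPM in the libraries labelled Alk1-HEC-KO, against 0.84, 0.729, 0.566, 0.539 and 0.64 CPM in Control libraries, and rose 2.02-fold (edgeR adjusted p = 0.0057). Plxna4 was at 33.1, 35, 36.9, 33.9 and 38.7 CPM in the libraries labelled Alk1-HEC-KO, against 52.7, 40.1, 41, 49.3 and 43.5 CPM in Control libraries, and fell 1.28-fold (edgeR adjusted p = 0.0088). The order within the subfamily by level was the same in both groups by mean TPM, with Plxna2 above Plxna1, Plxna4 and Plxna3. The calls of Plxna1, Plxna3 and Plxna4 ended on log2 TPM (limma adjusted p = 0.23, 0.18 and 0.22 with a pseudocount of 1), and those of Plxna1 and Plxna3 also with an offset for transcript length (0.36 and 0.2) and without Control libraries 4 and 5 (0.072 and 0.052). The span of Plxna4 overlaps 3 antisense genes, and the sources used here do not state whether counting used strand.

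The plexin B genes, among them receptors of class 4 semaphorins, did not move together either. Plxnb2, the most abundant of them and a receptor of Sema4c, was at 153, 123, 137, 122 and 133 CPM in the libraries labelled Alk1-HEC-KO, against 166, 196, 193, 162 and 166 CPM in Control libraries. It fell 1.32-fold without overlap (edgeR adjusted p = 0.0031). Plxnb1, the receptor of Sema4d, went the other way, at 9.31, 10.7, 13.8, 7.98 and 13.7 CPM in the libraries labelled Alk1-HEC-KO, against 4.49, 5.61, 3.88, 3.51 and 5.8 CPM in Control libraries. It rose 2.38-fold (log2 fold change 1.25 ± 0.19 SE, edgeR adjusted p = 4.7e-04). Plxnb3 was at 0.587, 0.985, 0.465, 0.966 and 0.585 CPM in the libraries labelled Alk1-HEC-KO, against 1.3, 1.76, 1.13, 1.93 and 1.75 CPM in Control libraries, and fell 2.18-fold (edgeR adjusted p = 0.0081). The Plxnb3 call ended on log2(TPM + 1) (limma adjusted p = 0.069) and without Control libraries 4 and 5 (0.066).

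The neuropilins, co-receptors of class 3 semaphorins and of VEGF, did not pass. Nrp1 was at 695, 765, 770, 658 and 848 CPM in the libraries labelled Alk1-HEC-KO and at 946, 791, 791, 861 and 856 CPM in Control libraries (log2 fold change -0.18 ± 0.08 SE, edgeR adjusted p = 0.11). Nrp2 was at 709, 595, 620, 656 and 733 CPM in the libraries labelled Alk1-HEC-KO and at 591, 579, 574, 595 and 590 CPM in Control libraries (0.18 ± 0.06, edgeR adjusted p = 0.062). The groups met at 595 CPM for Nrp2 and overlapped from 791 to 848 CPM for Nrp1. Of the 12 listed partners of semaphorins and plexins, 9 were tested, 2 rose and 3 fell, which is 55.6% called, beside 19.7% of all genes tested. These partners were listed with earlier results of these data known. L1cam, an adhesion molecule of the Sema3a receptor complex, rose 2.08-fold (3.66 ± 0.722 CPM in libraries labelled Alk1-HEC-KO and 1.76 ± 0.395 CPM in Control libraries, edgeR adjusted p = 0.0023). Erbb2, a partner of Plxnb1, fell by 0.33 ± 0.05 on the log2 scale (edgeR adjusted p = 4.9e-04), a call that ended on log2(TPM + 1) (limma adjusted p = 0.089). Kdr, VEGF receptor 2, fell by 0.33 ± 0.07 on the log2 scale (edgeR adjusted p = 0.0044).

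Netrin 1 and one of its receptors were both called higher. Ntn1 was at 79.4, 61.8, 66.2, 52.8 and 75.1 CPM in the libraries labelled Alk1-HEC-KO, against 42.6, 39.9, 28.4, 37.5 and 32.5 CPM in Control libraries. The groups did not overlap, and Ntn1 rose 1.85-fold (log2 fold change 0.89 ± 0.13 SE, edgeR adjusted p = 6.6e-04). Unc5b, the endothelial netrin receptor that also binds Robo4 and Flrt2, was at 65, 55.8, 49.9, 55.2 and 58.2 CPM in the libraries labelled Alk1-HEC-KO, against 17.4, 15.6, 13.3, 14.2 and 18.3 CPM in Control libraries. The lowest library labelled Alk1-HEC-KO was far above the highest Control library, and Unc5b rose 3.6-fold (log2 fold change 1.85 ± 0.10 SE, edgeR adjusted p = 1.0e-07), the smallest adjusted p among the 44 members.

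Unc5a, a netrin receptor better known from neurons, gave no such difference. It was at 75.2, 65.7, 74.2, 70.1 and 79.1 CPM in the libraries labelled Alk1-HEC-KO and at 77.6, 72.3, 65.8, 70.8 and 78.6 CPM in Control libraries (log2 fold change -0.00 ± 0.06 SE, edgeR adjusted p = 0.98). Its span overlaps that of Hk3. By TPM, Unc5b made up 33.3% ± 2.42 of the summed Unc5 level in libraries labelled Alk1-HEC-KO and 12.1% ± 0.6 in Control libraries, and nearly all of the rest was Unc5a (66.6% ± 2.43 and 87.7% ± 0.625; SD, n = 5 each). Unc5c and Unc5d held 8 and 2 counts over the libraries labelled Alk1-HEC-KO and 20 and 4 over Control libraries.

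Ntn4, a netrin of basement membranes that binds laminins, was the dominant netrin and did not pass. It was at 618, 731, 624, 731 and 636 CPM in the libraries labelled Alk1-HEC-KO and at 634, 509, 659, 608 and 794 CPM in Control libraries, with full overlap of the groups (log2 fold change 0.06 ± 0.10 SE, edgeR adjusted p = 0.74). Its share of the summed netrin TPM was 93.7% ± 1.34 in libraries labelled Alk1-HEC-KO and 96.3% ± 0.996 in Control libraries, and that of Ntn1 was 6.14% ± 1.32 and 3.58% ± 0.997. Ntn3 was at most 1.11 CPM in any library (edgeR adjusted p = 0.19), and Ntn5 had 2 counts in the libraries labelled Alk1-HEC-KO and 6 in Control libraries. Among other netrin receptors, Neo1, or neogenin, was at 15.5 ± 1.76 CPM in libraries labelled Alk1-HEC-KO and 14.9 ± 2.23 CPM in Control libraries (SD, n = 5 each; edgeR adjusted p = 0.76). Dcc was at 0 CPM in the libraries labelled Alk1-HEC-KO and in 4 of 5 Control libraries, and at 0.084 CPM in Control library 1. Rgmb, a neogenin ligand and BMP co-receptor, was at 35.3 ± 2.79 CPM in libraries labelled Alk1-HEC-KO and 38.5 ± 2.17 CPM in Control libraries (edgeR adjusted p = 0.21). Flrt2, a membrane ligand of Unc5 receptors, was at 50.8, 49.2, 56.2, 37.5 and 39.9 CPM in the libraries labelled Alk1-HEC-KO, against 26.7, 24.2, 23.5, 28.7 and 28.4 CPM in Control libraries, and rose 1.78-fold without overlap (edgeR adjusted p = 2.1e-04). Ntn1, Unc5b and Flrt2, a receptor with a soluble and a membrane ligand, were thus each called higher. Whether these 3 genes vary together between the libraries of a group was not tested.

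**Figure D4:**
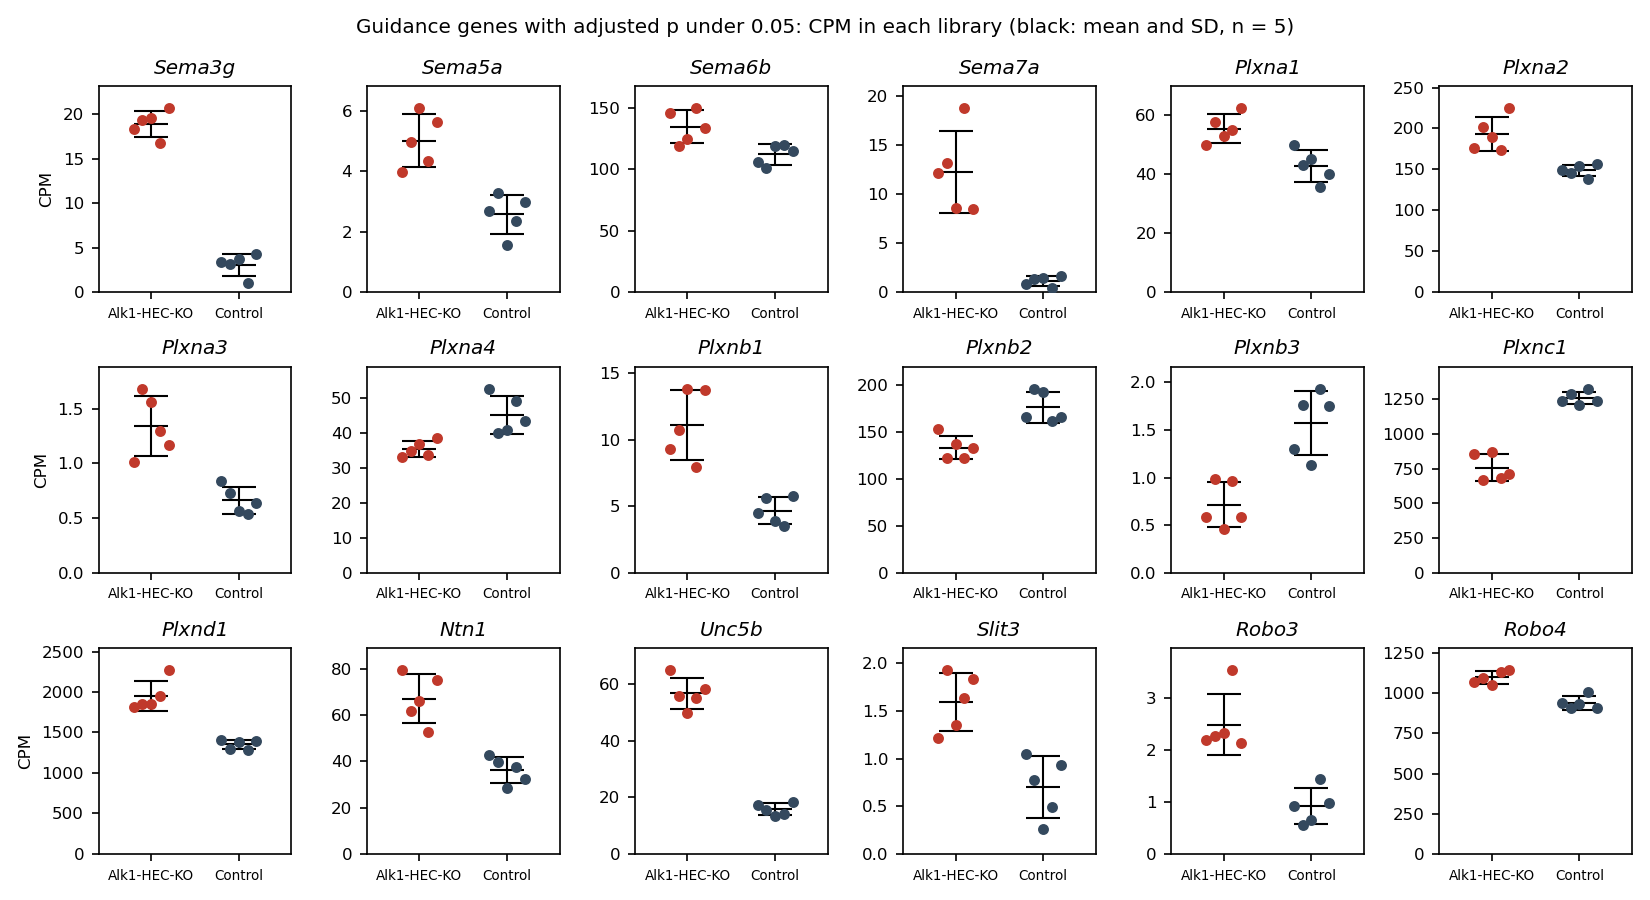
CPM in each library for the 18 guidance genes called, one panel per gene, with the 5 libraries labelled Alk1-HEC-KO on the left and the 5 Control libraries on the right of each panel (points), and the mean and SD in black. The groups lie apart for Unc5b (49.9 to 65 against 13.3 to 18.3 CPM), Sema3g (16.8 to 20.7 against 0.989 to 4.26 CPM) and Plxnc1 (671 to 870 against 1211 to 1323 CPM), and overlap slightly for Sema6b.

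The slits, secreted ligands of Robo receptors, were all low. Slit3 was at 1.22, 1.93, 1.35, 1.64 and 1.84 CPM in the libraries labelled Alk1-HEC-KO, against 1.05, 0.771, 0.261, 0.494 and 0.938 CPM in Control libraries, and rose 2.25-fold (edgeR adjusted p = 0.018). Slit2 was at 1.76, 2.91, 2.49, 3.53 and 2.51 CPM in the libraries labelled Alk1-HEC-KO and at 2.06, 1.71, 0.871, 1.39 and 1.88 CPM in Control libraries, with 1 library labelled Alk1-HEC-KO inside the Control range (edgeR adjusted p = 0.053). Slit1 had 27 counts in the libraries labelled Alk1-HEC-KO and 23 in Control libraries. Together the slits summed to 1.52 ± 0.415 TPM in libraries labelled Alk1-HEC-KO and 1.03 ± 0.736 TPM in Control libraries (SD, n = 5 each). The Slit3 call ended without Control libraries 4 and 5 (edgeR adjusted p = 0.067), and Slit2 was called in 5 of 22 alternatives. These were the fits without library 1 labelled Alk1-HEC-KO (0.031) or Control library 1 (0.043), with DESeq2 (adjusted p = 0.033), with library size alone (0.047) and with no filter (0.042). With the offset for transcript length the log2 fold change of Slit2 was 0.36 (edgeR adjusted p = 0.7), against 0.74 without it.

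Of the Robo receptors, Robo4 and Robo3 rose. Robo4, the endothelial member, made up 97.5% ± 0.0903 of the summed Robo TPM in libraries labelled Alk1-HEC-KO and 97.2% ± 0.332 in Control libraries. It was at 1071, 1095, 1052, 1136 and 1145 CPM in the libraries labelled Alk1-HEC-KO, against 937, 908, 935, 1011 and 908 CPM in Control libraries. The groups lay apart by a narrow gap, and Robo4 rose 1.17-fold (log2 fold change 0.23 ± 0.05 SE, edgeR adjusted p = 0.0078). Robo3, known for guiding commissural axons across the midline, was at 2.18, 2.26, 2.32, 3.53 and 2.13 CPM in the libraries labelled Alk1-HEC-KO, against 0.924, 0.557, 0.653, 1.44 and 0.981 CPM in Control libraries, and rose 2.72-fold (log2 fold change 1.44 ± 0.26 SE, edgeR adjusted p = 0.0018). Library 4 was the highest of its group for Robo3 in both groups, as Control library 4 was for Robo4. The 2 genes lie tail to tail on chromosome 9, on opposite strands with 553 bases between their annotated ends, and Robo4 was far above Robo3 in every library. Robo1, a receptor of Slit2, was at 48.3, 48.6, 42.4, 45.9 and 44.7 CPM in the libraries labelled Alk1-HEC-KO and at 56.4, 42.2, 43.1, 41.3 and 43.7 CPM in Control libraries, where Control library 1 stood apart (edgeR adjusted p = 0.91). Robo2 was at most 1.62 CPM in any library (edgeR adjusted p = 0.34).

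Beside the members, 72 other genes of these pathways were read from a list of co-receptors, co-ligands and effectors. That list was chosen with earlier results of these data known, so its shares and directions are descriptions only. Of the 64 tested 13 rose, 8 fell and 43 did not pass, which is 32.8% called, beside 19.7% of all genes tested. The effectors of netrin and Robo receptors gave 7 rises and no fall among 18 tested, 38.9% called, with a median log2 fold change of 0.20. Ablim3, an actin-binding LIM protein, rose 14.5-fold (31.5 ± 2.19 CPM in libraries labelled Alk1-HEC-KO and 2.16 ± 0.632 CPM in Control libraries, SD, n = 5 each; edgeR adjusted p = 5.0e-08). Its relative Ablim1 rose 2.23-fold (33 ± 3.85 and 14.8 ± 2.65 CPM, edgeR adjusted p = 2.5e-05). Nck2, an adaptor between guidance receptors and actin regulators, rose 1.84-fold (9.45 ± 1.36 and 5.14 ± 0.817 CPM, edgeR adjusted p = 6.4e-04). The groups overlapped for none of these 3 genes.

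Among 27 tested effectors of plexins and semaphorins 3 rose, 3 fell and 21 did not pass, 22.2% called, near the 19.7% of all genes tested, with a median log2 fold change of 0.03. Rhod, a small GTPase that binds plexins, fell 1.4-fold (43.6 ± 3.72 CPM in libraries labelled Alk1-HEC-KO and 61 ± 6.65 CPM in Control libraries, SD, n = 5 each; edgeR adjusted p = 0.0013). Dpysl3, a collapsin response mediator protein, rose 1.21-fold (128 ± 5.99 and 106 ± 4.59 CPM, edgeR adjusted p = 0.0017). Of 10 tested co-receptors and co-ligands of netrins and slits 1 rose, Flrt2, and 2 fell, which is 30% called, beside 19.7% of all genes tested.

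**Figure D5:**
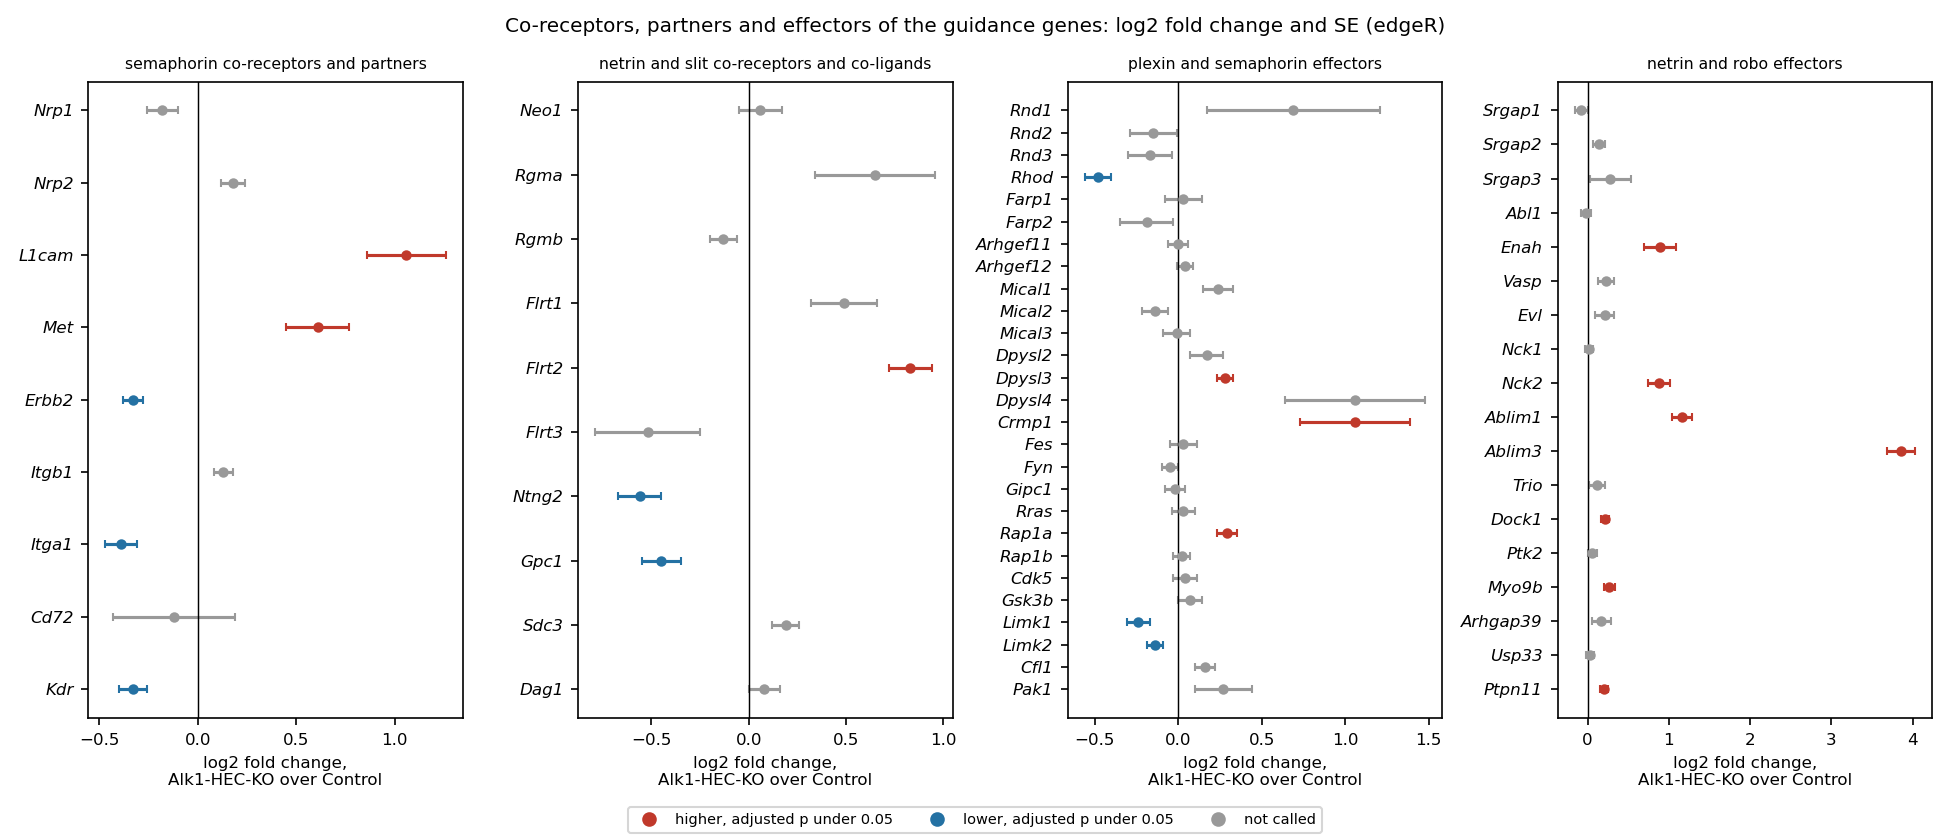
Log2 fold change (libraries labelled Alk1-HEC-KO over Control libraries, x axis) with its standard error for the 64 tested genes of the pathway list, in 4 groups by role. Ablim3 stands alone at 3.86 among the netrin and Robo effectors, and the plexin and semaphorin effectors scatter about 0.

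The mix of transcripts counted for each gene was read from the ratio of deposited count to deposited TPM, which follows the mean length of a gene's transcripts. This relative length could be had for 28 of the 44 members. None was called (limma on log2 values over 12169 genes, of which 1 gene, 0.00822%, passed), and 3 members had an unadjusted p under 0.05, beside 642 of all genes. The smallest p was that of Plxnc1, with a log2 difference of -0.02 ± 0.01 (SE; limma adjusted p = 0.69). For some members the error was wide: the log2 difference was 0.36 ± 0.32 for Sema7a, 0.18 ± 0.40 for Slit2 and -0.03 ± 0.21 for Plxna1. The ratio of Sema7a was 1, 1.34, 1.33, 0.402 and 1.33 in Control libraries. For these members the lack of a call does not show that the mix was unchanged. For Plxnd1 the ratio to the median gene was 1.68, 1.65, 1.67, 1.61 and 1.86 in the libraries labelled Alk1-HEC-KO and 1.74, 1.52, 1.51, 1.48 and 1.57 in Control libraries (limma adjusted p = 0.95). Acvrl1, which is not a member, had a log2 difference of 0.12 and was not called (limma unadjusted p = 9.4e-04, adjusted p = 0.39).

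Several guidance genes are also expressed by cells other than endothelium, so marker lists of such cells were read beside them. Bile duct markers summed to 458 to 802 TPM in libraries labelled Alk1-HEC-KO and 214 to 334 TPM in Control libraries, and 5 of 6 rose. Spp1 held the largest part of that sum, at 575 ± 122 TPM in libraries labelled Alk1-HEC-KO and 247 ± 43.6 TPM in Control libraries. Krt19 was at 18.9 ± 4.41 and 10.1 ± 3.25 TPM, and Epcam at 15.1 ± 3.35 and 6.35 ± 0.824 TPM. B and plasma cell markers summed to 67.6 to 128 TPM in libraries labelled Alk1-HEC-KO and 29.8 to 60.9 TPM in Control libraries, and 2 of 6 rose. Stellate cell and fibroblast markers summed to 116 to 184 TPM in libraries labelled Alk1-HEC-KO and 71.1 to 134 TPM in Control libraries, and 3 of 10, all fibrillar collagens, rose. T and NK cell markers summed to 67.5 to 168 TPM in libraries labelled Alk1-HEC-KO and 56.8 to 91.3 TPM in Control libraries, with 2 of 9 lower, and hepatocyte markers to 644 to 1335 and 655 to 2390 TPM, with 3 of 11 tested lower. None of 10 macrophage markers was called (706 to 1663 and 698 to 2239 TPM), nor any of the 4 mesothelial markers (13.8 to 38.8 and 6.78 to 25 TPM) or of the 7 markers of neutrophils, platelets and red cells (467 to 2345 and 411 to 1659 TPM). Mural cell markers summed to 47 to 70.2 TPM in libraries labelled Alk1-HEC-KO and 27.9 to 67.9 TPM in Control libraries, with 1 of 8 higher, and lymphatic markers to 434 to 552 and 432 to 552 TPM, with 1 of 5 higher, Prox1. Flt4, which was not called, held the largest part of the lymphatic sum, at 399 ± 44 TPM in libraries labelled Alk1-HEC-KO and 426 ± 52.4 TPM in Control libraries. Markers of neurons and Schwann cells summed to 4.42 to 6.3 TPM in libraries labelled Alk1-HEC-KO and 1.68 to 5.84 TPM in Control libraries, with 1 of 3 tested higher and Snap25 and Nefl under 0.1 TPM in every library. That gene, Stmn2, which encodes a neuronal regulator of microtubules, rose 2.85-fold without overlap (3.16 ± 0.258 CPM in libraries labelled Alk1-HEC-KO and 1.1 ± 0.393 CPM in Control libraries, SD, n = 5 each; edgeR adjusted p = 4.1e-04). The part of these cells in the member results was not tested.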

How the data were processed

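Per the submitters' processing notes, the tools were Trim Galore 0.6.4 for trimming and kallisto 0.4.6 for quantification, with the build GRCm38.p6. Each library has deposited expected counts, which are estimates and not always whole, and deposited TPM values. The sources used here name neither the annotation release nor the way transcripts were summed to genes. Symbols came from GENCODE M21 by stable identifier (55144 of 55385 matched). Sample titles gave the groups and the replicate numbers.

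Counts were rounded and tested with edgeR 4.0.16 (R 4.3.3): filterByExpr with a minimum count of 10, TMM scaling, robust quasi-likelihood test of genotype alone, Benjamini-Hochberg adjustment over all 15043 genes tested and a threshold of 0.05. CPM used TMM-scaled library sizes, and an SE is the log2 fold change over the root of the F statistic. Relative lengths were tested with limma 3.58.1 where the mean count was at least 50. The procedure was checked on simulated data.

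Alternatives were DESeq2 1.42.0, limma-voom, no robust estimation, scaling by library size alone or by DESeq2 size factors, a stricter filter (1 CPM in 5 libraries) or none, a transcript length offset, log2 TPM in limma (pseudocounts 1 and 0.1), blocking on replicate number, Control libraries 4 and 5 left out, and each library left out. Libraries of a group differed by more than sampling noise (chi-square per degree of freedom 10.38 to 29.62), so none was taken as a repeat run of another and all 10 were kept. These values do not show whether the libraries come from separate animals. The members, lists and the rule for naming genes were chosen with earlier results of these data known. That rule gives every sample's value for called members of at least 1 CPM and for the 2 most abundant of each family, and names of the pathway list Nrp1, Nrp2, Neo1, Dcc, Rgmb, Flrt2 and the 8 called genes with the smallest p.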

Additional observations from a re-analysis of the deposited data

Results flagged for a closer look

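In 6 cases 1 library stood far from the other 4 of its group, among 102 groups of 5 looked at, where chance gives about 1 in 20. Library 4 labelled Alk1-HEC-KO had 3.53 CPM of Robo3, where the other 4 had 2.13 to 2.32 CPM. Control library 4 had 1011 CPM of Robo4, where the other 4 had 908 to 937 CPM. Control library 1 had 56.4 CPM of Robo1, where the other 4 had 41.3 to 43.7 CPM. Control library 2 had 59.7 CPM of Sema4b, where the other 4 had 40.7 to 44.2 CPM. Neo1 had 1 such library in each group: library 5 labelled Alk1-HEC-KO had 18.6 CPM, where the other 4 had 14.4 to 14.9 CPM, and Control library 3 had 10.9 CPM, where the other 4 had 15.6 to 16.1 CPM.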

How the results depend on the processing

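Of the 18 guidance genes called, 12 were called in each of the 22 alternatives, 10 of them higher and 2 lower: the exceptions were Sema6b, Plxna1, Plxna3, Plxna4, Plxnb3 and Slit3. The count of members called was 13 without Control libraries 4 and 5, 16 on log2 TPM with either pseudocount, 21 with DESeq2 or scaling by library size alone, and between these in the rest, with 17 to 19 when each library was left out in turn. Over all genes 1940 were called without Control libraries 4 and 5, against 2959, with fewer samples fitted. Calls were higher in 65.7% with library size alone and in 73.3 and 73% on log2 TPM with pseudocounts of 1 and 0.1, against 53.8%, and these settings moved the median gene by 0.05, 0.08 and 0.10 on the log2 scale. No member was called by relative length in any alternative.

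Genes near 0 changed sign without being called. The log2 fold change of Sema4b was 0.01 with limma-voom, 0.05 with library size alone, 0.00 with the stricter filter, and 0.10 and 0.11 on log2 TPM with pseudocounts of 1 and 0.1. That of Sema6d was 0.02 with library size alone and 0.07 on log2 TPM with either pseudocount, and that of Unc5a was 0.04 and 0.10, 0.00 with the length offset and 0.01 without Control libraries 4 and 5. Sema4d was at -0.03 with the length offset, Sema4g at 0.00 on log2(TPM + 0.1) and Robo1 at -0.05 without Control libraries 4 and 5. When each library was left out in turn, the range was -0.01 to 0.15 for Ntn4, -0.01 to 0.11 for Robo1, -0.04 to 0.12 for Sema4b, -0.31 to 0.03 for Sema4g, -0.08 to 0.01 for Sema6d, -0.04 to 0.02 for Unc5a and -0.03 to 0.09 for Neo1. The cause was not tested.

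Same-numbered libraries deviated together by correlations of -0.196, 0.35, 0.015, 0.108 and 0.284 for replicates 1 to 5, so the numbers were not taken as pairs, and not every library correlated best with its own number. With the replicate number as a block the same 18 members and 2567 genes were called, and Sema4b was at 0.01. Counting error is largest for the members with the fewest counts, and 7 members, Slit1 among them, were too low to test.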
